A study of Homo sapiens with 4 samples.

Results

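The genes described here encode small GTPases of the RAS, RAP and RAL groups: HRAS, NRAS, RRAS, RRAS2, MRAS, RAP1A, RAP1B, RALA and RALB. They were chosen by name, and all 9 were found among the 41507 genes of the deposited gene table, with 35 of the 67765 entries of the transcript table. RNA was sequenced from SU-DHL-5 and Toledo, established human cell lines derived from diffuse large B-cell lymphoma (DLBCL), each treated with the solvent DMSO or with JQ1 at 1 µM. JQ1 blocks the bromodomains of BET proteins, which bind acetylated histones and promote transcription. The labels give a treatment of 6 h, while a legend of the study gives another duration. There was 1 sample for each line and treatment, and each sample had 2 libraries, so the differences below could not be checked against replicates, and none carries a p-value.

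RAS proteins are molecular switches that are active when bound to GTP and inactive when bound to GDP. Exchange factors load them with GTP, and GTPase-activating proteins promote its hydrolysis. HRAS and NRAS are classical RAS proteins that recruit RAF kinases and thereby start the MEK-ERK cascade. RRAS, RRAS2 and MRAS form the related R-RAS group, in which RRAS2 is also known as TC21 and MRAS acts with SHOC2 on RAF. RAP1 proteins control integrin adhesion and the polarity of lymphocytes, and RAL proteins act downstream of RAS and engage the exocyst.

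Promoter sequences are shown for 4 of the genes, since HRAS and NRAS were both lower with JQ1 in Toledo, RAP1B was the most abundant member, and the reads of RRAS2 came from 1 of its start sites. Sequences are from RefSeq (build GRCh38.p14), run 5′ to 3′ on the strand of the gene, and span 250 bases before and 50 bases after the RefSeq start. 8 of the 9 genes had an entry. Capitals mark the motifs searched on both strands, namely the E-box CACGTG, the GC box GGGCGG, the CCAAT box CCAAT, the ETS core CCGGAA, the cAMP response element (CRE) TGACGTCA and the TATA motif TATAAA; in the windows shown no 2 motifs overlapped.
HRAS, chr11:535527-535826, minus strand: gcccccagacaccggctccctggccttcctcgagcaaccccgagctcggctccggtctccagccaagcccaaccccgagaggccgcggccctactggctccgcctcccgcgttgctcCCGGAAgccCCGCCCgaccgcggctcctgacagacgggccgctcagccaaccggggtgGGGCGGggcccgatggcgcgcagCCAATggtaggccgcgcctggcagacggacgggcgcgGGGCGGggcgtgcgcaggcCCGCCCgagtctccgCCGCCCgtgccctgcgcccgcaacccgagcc
NRAS, chr1:114716722-114717021, minus strand: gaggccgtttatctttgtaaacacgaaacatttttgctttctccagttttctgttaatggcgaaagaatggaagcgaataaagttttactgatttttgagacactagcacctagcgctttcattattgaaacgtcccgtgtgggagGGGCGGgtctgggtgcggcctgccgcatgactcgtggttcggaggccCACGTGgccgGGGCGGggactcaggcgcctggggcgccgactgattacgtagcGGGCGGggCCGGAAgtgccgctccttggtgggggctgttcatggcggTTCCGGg
RRAS2, start in use, chr11:14359134-14359433, minus strand: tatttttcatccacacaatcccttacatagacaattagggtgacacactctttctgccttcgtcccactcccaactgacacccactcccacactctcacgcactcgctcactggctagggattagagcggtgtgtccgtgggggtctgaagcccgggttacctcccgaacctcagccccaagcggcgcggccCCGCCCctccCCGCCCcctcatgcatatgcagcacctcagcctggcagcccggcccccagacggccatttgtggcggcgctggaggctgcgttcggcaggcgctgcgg
RRAS2, upstream start, chr11:14364457-14364756, minus strand: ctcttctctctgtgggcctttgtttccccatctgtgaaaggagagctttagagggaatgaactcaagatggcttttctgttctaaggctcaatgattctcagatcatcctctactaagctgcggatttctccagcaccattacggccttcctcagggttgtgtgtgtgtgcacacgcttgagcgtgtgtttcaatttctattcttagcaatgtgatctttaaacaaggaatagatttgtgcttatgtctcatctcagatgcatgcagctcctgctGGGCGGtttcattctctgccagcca
RAP1B, chr12:68610649-68610948, plus strand: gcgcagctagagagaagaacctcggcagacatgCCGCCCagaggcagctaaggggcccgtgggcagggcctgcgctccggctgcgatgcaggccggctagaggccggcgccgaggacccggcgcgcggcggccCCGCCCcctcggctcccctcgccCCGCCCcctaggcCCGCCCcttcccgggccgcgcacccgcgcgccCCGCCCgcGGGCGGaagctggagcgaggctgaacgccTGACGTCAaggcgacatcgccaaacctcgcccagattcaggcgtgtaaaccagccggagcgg

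The windows differed in their motifs. That of NRAS held 1 E-box, which 7.26% of the 35116 RefSeq promoter windows of 300 bases also held, together with 3 GC boxes and 2 ETS cores. The window of HRAS held 5 GC boxes, 1 CCAAT and 1 ETS core. RAP1B had 6 GC boxes and 1 CRE, and the CRE occurred in 1.85% of all windows. Among all windows, 45.0% held a GC box, 34.6% a CCAAT, 17.2% an ETS core and 11.5% a TATA motif. None of the 5 windows shown held TATAAA. The start of the used RRAS2 transcript in the deposited table lay 1 base from the RefSeq start, that of the main transcript of HRAS 26 bases, that of RAP1B 60 bases and that of NRAS 123 bases. The RefSeq start of RAP1A lay 77774 bases from the nearest start in the deposited table, so its window is not shown.

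The libraries had 14617601 to 17679855 mapped reads, as recovered from the deposited RPKM values (reads scaled by feature length and by the mapped reads of the library). HEXIM1, whose RNA is known to increase on BET inhibition, was 4.35 and 3.89 RPKM with DMSO and 22.4 and 22.9 RPKM with JQ1 in SU-DHL-5, and 4.04 and 3.94 against 23.9 and 24.5 RPKM in Toledo. All 6 B-cell markers examined were present, summing to 884 to 999 RPKM in the DMSO libraries and 609 to 637 RPKM in the JQ1 libraries, while markers of T cells, myeloid cells and fibroblasts summed to 5.72 RPKM or less in every library, with CD2 and COL3A1 at 0. The highest were DCN at 5.66 and 5.09 RPKM in SU-DHL-5 with DMSO and COL1A1 at 2.29 and 2.72 RPKM in Toledo with DMSO. CD3E (1.09 and 0.934 RPKM) and LYZ (1.09 and 1.20 RPKM) also had reads in SU-DHL-5 with DMSO. Each of these genes was lower with JQ1 in the line named. Plasma cell markers summed to 18.8 to 19.1 RPKM with DMSO and 6.79 to 7.34 RPKM with JQ1 in SU-DHL-5, and to 78.2 to 83.9 and 29.9 to 30.2 RPKM in Toledo. XBP1 made up most of each sum, and PRDM1 was below 1 RPKM in every library. SDC1 was at 0.861 and 1.015 RPKM in SU-DHL-5 with DMSO and lower in Toledo with DMSO, at 0.195 and 0.163 RPKM. The part of these marker shifts in the values below was not tested. In bulk RNA, fewer cells and less RNA per cell cannot be told apart. The Toledo DMSO libraries differed from each other with gene length: across 9467 genes, Spearman's rho between length and the log2 ratio of library 2 over library 1 was 0.61, against -0.28 to -0.07 in the other samples, as a description. Among the members, the log2 ratio of library 2 over library 1 of Toledo DMSO was -0.25 for RRAS (983 bases), -0.21 for HRAS (1245 bases), 0.39 for RAP1A (2107 bases), 0.05 for RALA (3080 bases) and 0.34 for NRAS (4454 bases).

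Levels of the 9 genes were spread widely in untreated cells. RAP1B was the highest member in every sample, at 104 and 108 RPKM in SU-DHL-5 with DMSO and at 165 and 176 RPKM in Toledo with DMSO. HRAS came next in both DMSO samples, and RRAS and RALB were the lowest of the members with reads. In SU-DHL-5 with DMSO the order by mean RPKM was RAP1B (106), HRAS (38.2), RAP1A (32.6), RRAS2 (30.0), NRAS (27.9), RALA (15.3), RRAS (7.01) and RALB (6.68). The libraries of RAP1A and RRAS2, of RRAS2 and NRAS, and of RRAS and RALB overlapped, so these neighbours were not separated. The order in Toledo with DMSO was RAP1B (171), HRAS (44.9), RALA (24.7), NRAS (22.1), RAP1A (15.6), RRAS2 (10.8), RALB (5.57) and RRAS (2.75), where RALA and NRAS overlapped. MRAS was listed at 0 in all 8 libraries, as a gene and in each of its 8 transcripts. A count of 0 allows up to 3 reads in a library, and 26563 genes of the table were at 0 throughout.

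**Figure D1:**
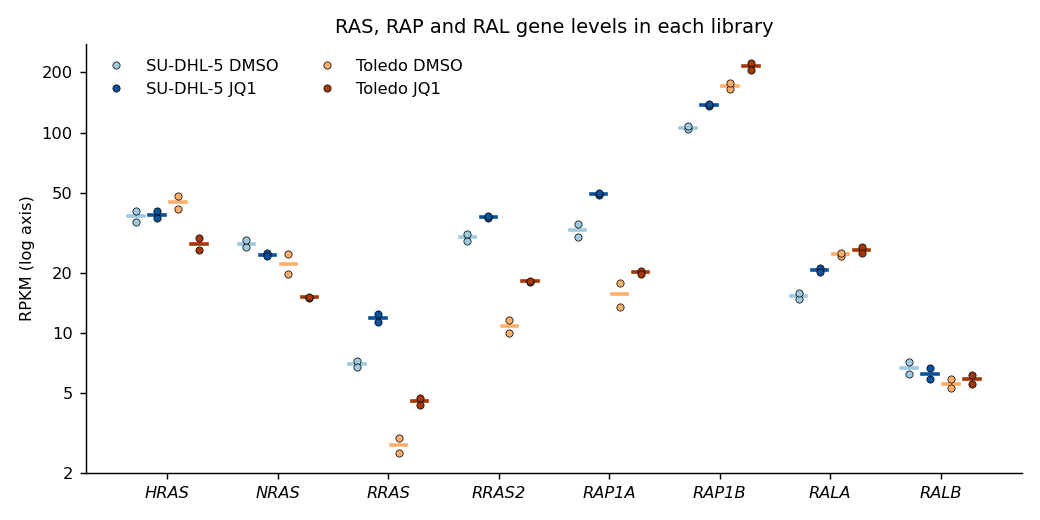
RPKM (log axis) of the 8 members with reads in each library (points) and the mean of the 2 libraries (bars), by line and treatment. RAP1B lies above all other members in every sample, RRAS and RRAS2 sit lower in Toledo than in SU-DHL-5, and HRAS and NRAS of Toledo are lower with JQ1; MRAS, at 0, is not drawn.

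The first comparison asked how the untreated lines differ. RRAS, RRAS2 and RAP1A were lower in Toledo by more than 2-fold, and RAP1B and RALA were higher there. For RRAS, which regulates integrin affinity, the values were 7.26 and 6.77 RPKM in SU-DHL-5 and 2.99 and 2.51 RPKM in Toledo, a log2 ratio of -1.32 (95% interval -1.71 to -0.99). RRAS2 stood at 28.9 and 31.2 RPKM in SU-DHL-5 and at 9.95 and 11.6 RPKM in Toledo (log2 ratio -1.47, interval -1.59 to -1.38). RAP1A was at 30.1 and 35.0 RPKM and at 13.4 and 17.7 RPKM (log2 ratio -1.06, interval -1.18 to -0.97). These 3 genes lay beyond 2-fold, and no library of one line reached those of the other. The intervals are exact binomial (Clopper-Pearson) intervals of the recovered reads and cover counting error only.

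RAP1B, the more abundant RAP1 gene, had the opposite order to RAP1A, with a log2 ratio of 0.69 (interval 0.65 to 0.73). RALA read 14.8 and 15.8 RPKM in SU-DHL-5 and 24.3 and 25.1 RPKM in Toledo, with a log2 ratio of 0.69 (interval 0.60 to 0.78). The ratio of RAP1B to RAP1A thus rested on shifts of both genes in opposite directions, each with libraries that did not overlap. The remaining members differed less, by log2 ratios of 0.23 for HRAS, -0.33 for NRAS and -0.26 for RALB. Their libraries did not overlap between the lines either, but the closest libraries of HRAS differed by only 0.03 on the log2 scale.

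Of the 8 members with at least 1 RPKM, 2 were past 1.5-fold higher in Toledo and 3 past 1.5-fold lower, with libraries that did not overlap. Of the 10078 genes compared, 27.1% were past that limit upward and 24.0% downward. Without a limit on size, 3 members were wholly above and 5 wholly below, where 43.2% and 41.9% of all genes were. The median log2 ratio was -0.29 over the members and 0.00467 over all genes. All 5 calls held under each of the 8 alternatives tried.

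**Figure D2:**
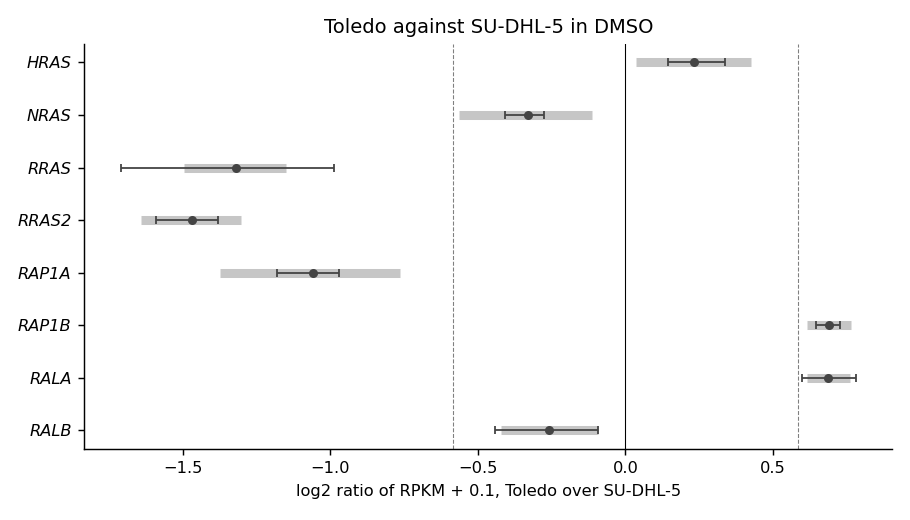
Log2 ratio of mean RPKM + 0.1, Toledo over SU-DHL-5, both with DMSO, for the 8 members with reads. Points are the ratios, whiskers the 95% counting intervals, pale bars the range over the library pairs and dashed lines 1.5-fold; RRAS2, RRAS and RAP1A lie below -1 and RAP1B and RALA at 0.69.

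The second comparison asked how the genes responded to JQ1 in SU-DHL-5. RRAS and RAP1A rose past 1.5-fold, RALA, RAP1B and RRAS2 were higher by less, NRAS was slightly lower, and HRAS and RALB did not separate by treatment. RRAS went from 7.26 and 6.77 RPKM with DMSO to 12.4 and 11.3 RPKM with JQ1, a log2 ratio of 0.75 (interval 0.52 to 1.01), and 95.3% of genes had a lower ratio. RAP1A went from 30.1 and 35.0 to 48.6 and 49.8 RPKM (log2 ratio 0.59, interval 0.51 to 0.67). At 1.51-fold RAP1A was at the limit, and it fell short of 1.5-fold with a pseudocount of 1, after scaling by the median ratio, or in library 2 alone, where its log2 ratio was 0.51.

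RALA, which was at 14.8 and 15.8 RPKM with DMSO, was at 21.2 and 20.03 RPKM with JQ1 (log2 ratio 0.43, interval 0.33 to 0.53). RAP1B moved from 104 and 108 to 135 and 139 RPKM (log2 ratio 0.38, interval 0.33 to 0.42). RRAS2 had 28.9 and 31.2 RPKM before and 37.3 and 38.4 RPKM after treatment (log2 ratio 0.33, interval 0.26 to 0.40). In these 3 genes each library of treated cells exceeded each control library, and the differences were below 1.5-fold.

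Among the classical RAS genes, HRAS had 40.6 and 35.9 RPKM with DMSO and 37.3 and 40.4 RPKM with JQ1. Its libraries overlapped, and the interval of its log2 ratio of 0.02 ran from -0.08 to 0.13. NRAS had 26.8 and 29 RPKM with DMSO against 24.9 and 24.3 RPKM with JQ1 (log2 ratio -0.18, interval -0.25 to -0.11), which is lower in both libraries by a small amount. RALB overlapped, at 6.25 and 7.12 against 5.85 and 6.66 RPKM (log2 ratio -0.09, interval -0.28 to 0.07).

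Thus 2 of 8 members were past 1.5-fold upward and 0 downward, where 9.01% and 12.9% of the 9316 genes compared were. Libraries were wholly higher with JQ1 in 5 members and wholly lower in 1, against 42.1% and 38.5% of all genes. The median log2 ratio of the members was 0.35, and that of all genes 0.0186. No member fell to the ratio of 0.5 that the study used as its cutoff, where 6.28% of the 9316 genes did.

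The third comparison was that of JQ1 with DMSO in Toledo, where members moved both ways. HRAS fell past 1.5-fold, NRAS was lower by slightly less, RRAS and RRAS2 rose, RAP1A and RAP1B were higher by less than 1.5-fold, and the RAL genes did not separate. HRAS was at 48.2 and 41.6 RPKM with DMSO and at 25.8 and 29.6 RPKM with JQ1. Its log2 ratio was -0.70 (interval -0.81 to -0.60), and every JQ1 library was below every DMSO library. The size of this fall depended on the libraries: the log2 ratio was -0.90 in library 1 alone, -0.49 in library 2 alone and -0.47 after centring on genes of like length, and both of the latter are short of 1.5-fold. NRAS was at 19.6 and 24.7 RPKM with DMSO and at 14.9 and 15.1 RPKM with JQ1 (log2 ratio -0.56, interval -0.63 to -0.47). Its ratio was -0.39 in library 1 alone and -0.70 in library 2 alone, the reverse order to that of HRAS. The part of the length difference between the Toledo DMSO libraries in these values was not tested.

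In the R-RAS group, RRAS2 increased from 9.95 and 11.6 RPKM to 18.0 and 18.1 RPKM (log2 ratio 0.74, interval 0.64 to 0.87), a higher ratio than 95.7% of genes. RRAS increased from 2.99 and 2.51 RPKM to 4.75 and 4.35 RPKM (log2 ratio 0.71, interval 0.34 to 1.12). With a pseudocount of 1 the ratio of RRAS was 0.57, short of 1.5-fold. The interval of RRAS is wide because it rests on 92 reads with DMSO and 145 reads with JQ1. Even with JQ1, both genes in Toledo stayed below their levels in untreated SU-DHL-5.

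RAP1A was at 13.4 and 17.7 RPKM with DMSO and at 20.4 and 19.7 RPKM with JQ1 (log2 ratio 0.36, interval 0.26 to 0.49). The DMSO libraries of RAP1A differed widely, and its ratio was 0.60 in library 1 alone and 0.15 in library 2 alone. RAP1B went from 165 and 176 to 221 and 206 RPKM (log2 ratio 0.32, interval 0.29 to 0.36). RALA had 24.3 and 25.1 against 26.8 and 25.0 RPKM (log2 ratio 0.07, interval -0.01 to 0.15), and RALB 5.29 and 5.86 against 6.17 and 5.57 RPKM (log2 ratio 0.07, interval -0.10 to 0.26). The libraries of both RAL genes overlapped.

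In all, 2 of 8 members were past 1.5-fold upward and 1 downward, where 6.98% and 17.2% of the 9646 genes compared were. Libraries lay wholly above in 4 members and wholly below in 2, against 29.5% and 43.6% of all genes. The median log2 ratio was 0.20 over the members and -0.07 over all genes. In library 1 alone it was 0.32 over the members and -0.00136 over all genes, and in library 2 alone 0.07 and -0.15.

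**Figure D3:**
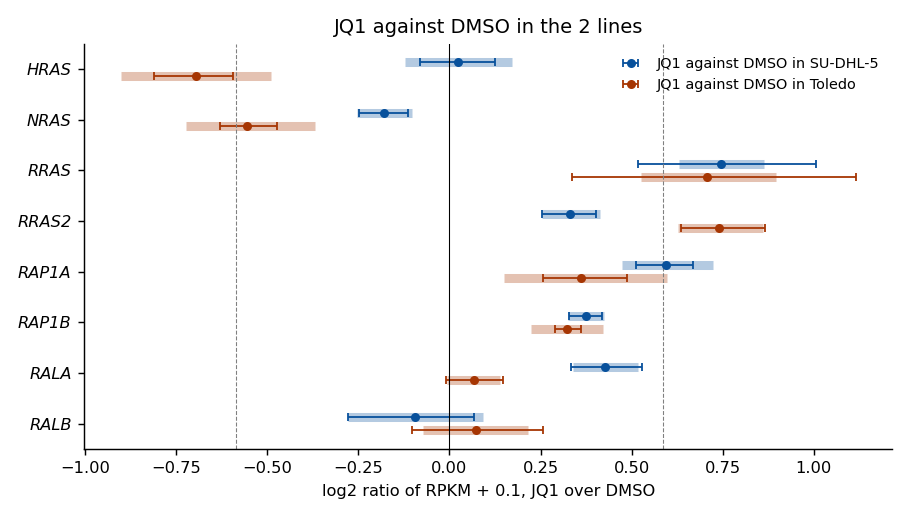
Log2 ratio of mean RPKM + 0.1, JQ1 over DMSO, in SU-DHL-5 (blue) and Toledo (brown). Points are the ratios, whiskers the 95% counting intervals, pale bars the range over the library pairs and dashed lines 1.5-fold; HRAS lies at 0.02 in SU-DHL-5 and at -0.70 in Toledo, while RRAS lies near 0.7 in both.

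**Figure D4:**
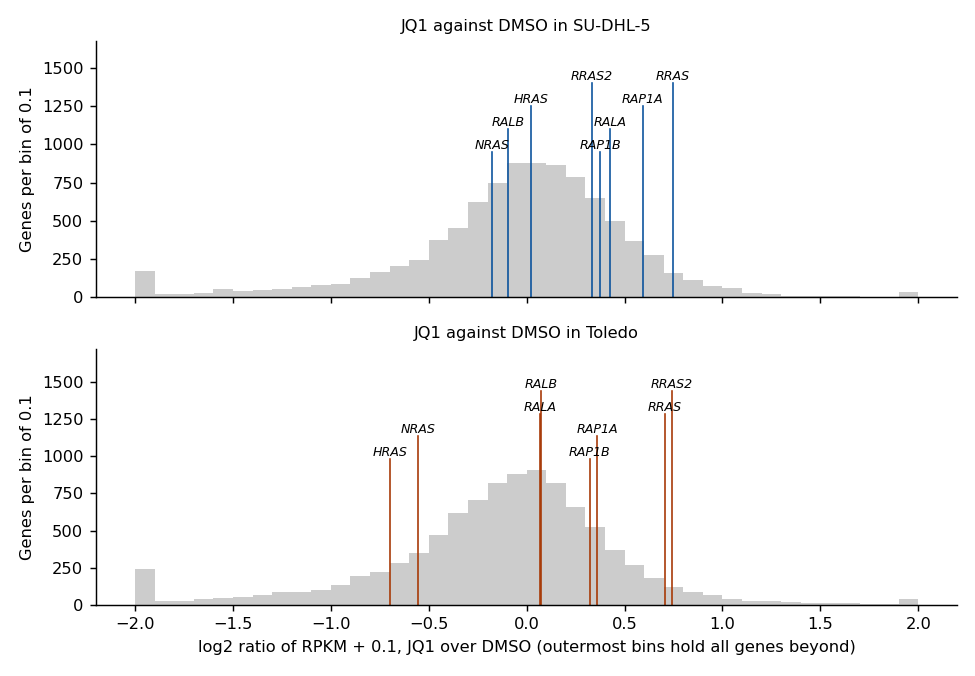
Numbers of genes per bin of 0.1 in the log2 ratio of JQ1 over DMSO (grey), with the members marked by lines, for SU-DHL-5 (9316 genes) and Toledo (9646 genes). HRAS stands above 50.4% of genes in SU-DHL-5 and above 13.9% in Toledo, and RRAS above 95.3% in both.

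The lines were then set side by side, without a test, since each has 1 sample per treatment. The comparison of untreated lines shares its DMSO samples with both JQ1 comparisons, so only the values of each are given. HRAS had the largest difference among the members, with a log2 ratio lower by 0.72 in Toledo, and 3.74% of the 8718 genes compared had a lower value of this difference. RRAS2 was at the other end, with a difference of 0.41 and 94.3% of genes below it. NRAS and RALA differed by -0.38 and -0.36, RAP1A by -0.23, RALB by 0.17, RAP1B by -0.05 and RRAS by -0.04. The median difference over all genes was -0.10.

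As a share of the summed RPKM of the 9 genes, HRAS and NRAS together made up 26.1% and 24.2% in the DMSO libraries of SU-DHL-5 and 19.3% and 19.6% in its JQ1 libraries. In Toledo their share was 23.5% and 21.7% with DMSO and 12.04% and 13.8% with JQ1. In SU-DHL-5 the sum of the 2 genes itself was near level, at 67.4 and 64.9 RPKM with DMSO and 62.2 and 64.7 RPKM with JQ1, while the sum of all 9 was 258 and 269 RPKM with DMSO and 323 and 330 RPKM with JQ1. In Toledo the sum of HRAS and NRAS was 67.8 and 66.3 RPKM with DMSO and 40.7 and 44.8 RPKM with JQ1. The lower share thus went with more RNA of the other members in SU-DHL-5, and with both less HRAS and NRAS and more of the others in Toledo. RAP1A and RAP1B made up the largest share in every library, from 51.8% to 71.5%, most of it RAP1B. The RAL genes kept to between 8.08% and 10.2%.

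**Figure D5:**
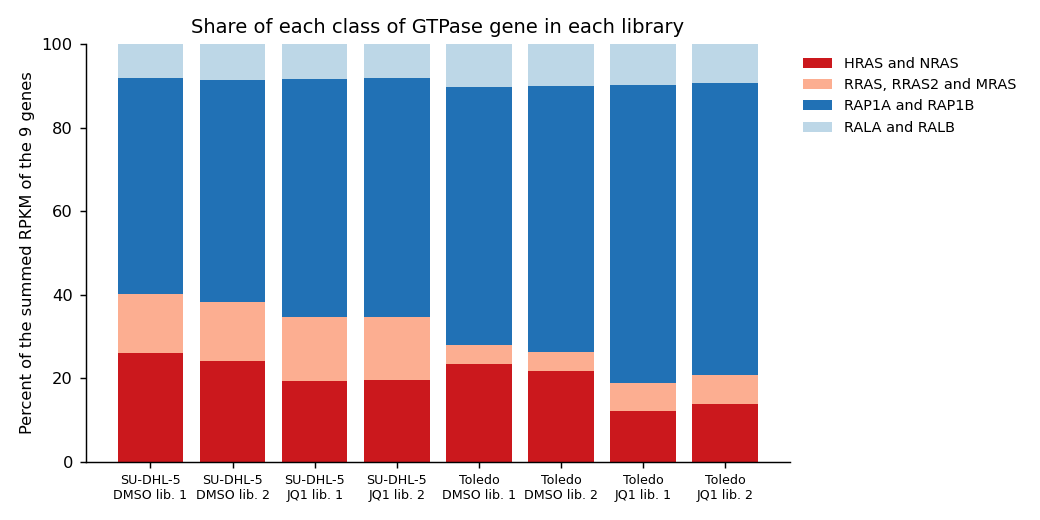
Percent of the summed RPKM of the 9 genes in each library, for HRAS and NRAS (red), the R-RAS group (pink), the RAP1 genes (dark blue) and the RAL genes (light blue). The red share is 21.7% to 26.1% with DMSO and 12.04% to 19.6% with JQ1, and the pink share is smaller in Toledo than in SU-DHL-5.

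Transcript entries showed which isoforms the reads were assigned to. NRAS and RRAS each had 1 transcript. RRAS2 had 4, and nearly all of its reads lay on RRAS2_2, which begins at the start shown above as in use. RRAS2_1, which begins at the upstream start, was listed at 0 in every library, and RRAS2_4 had 1 read in 1 Toledo JQ1 library. The difference in RRAS2 between the lines and with JQ1 is therefore carried by 1 transcript. The window of the start in use had a GC content of 63.3% and 2 GC boxes, and that of the upstream start 46% and 1 GC box. Other RRAS2 windows are not shown. The window whose start lay 18 bases from that of RRAS2_4 had 75.7% and 3 GC boxes, more than the start in use. Another had 42.3% and 0 GC boxes.

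HRAS_2 was the main transcript of HRAS, with 75.6% of its reads in SU-DHL-5 with DMSO (exact binomial 95% interval 73.4 to 77.7%) and 79.9% with JQ1 (77.8 to 81.9%). In single libraries of this line HRAS_2 had 77.8% and 73.2% with DMSO and 85.8% and 73.7% with JQ1, so the treatments overlapped. In Toledo it held 79.9% with DMSO (78.1 to 81.7%) and 78.4% with JQ1 (75.9 to 80.8%), so the lower HRAS level of Toledo with JQ1 came without a shift in this share beyond counting error. HRAS_4 had 12.9% of the reads in SU-DHL-5 with DMSO (11.3 to 14.7%) and 4.66% with JQ1 (3.65 to 5.86%), and 7.04% and 6.62% in Toledo. Both DMSO libraries of SU-DHL-5, at 9.96% and 12.6% of the summed transcript RPKM, were above both JQ1 libraries, at 3.92% and 4.13%.

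Shares varied less in most of the other members. RAP1A_3 held 82.9% to 86.2% of the RAP1A reads per sample, and RALA_1 94.3% to 96.9% of the RALA reads. In single libraries the ranges were wider, at 79.4% to 88.6% and 92.2% to 98.6%. RAP1B was split between RAP1B_3, with 65.4% to 69.7% per sample (65.3% to 71.6% in single libraries), and RAP1B_1, with 24.6% to 30.7% (24.6% to 31.0%). RALB was split between RALB_2, with 62.2% of reads in SU-DHL-5 with DMSO and 75.6% in Toledo with DMSO, and RALB_3, with 37.8% and 15.3%. RALB_2 (chr2:120252838-120294710, 2261 bases) and RALB_3 (chr2:120252839-120294711, 2264 bases) nearly coincide in ends and length. RAP1B_1 (2151 bases) and RAP1B_3 (2142 bases) have the same ends. How reads shared by transcripts of a gene were assigned is not given in the sources used here. Its part in the shares was not tested. As shares of the summed transcript RPKM, RALB_3 had 38.5% and 37.1% in the DMSO libraries of SU-DHL-5 and 10.7% and 19.7% in those of Toledo, and RALB_2 had 61.5% and 62.9% against 70.3% and 80.3%, without overlap. With JQ1 the read share of RALB_2 was 67.6% for SU-DHL-5 against 56.5% for Toledo, and that of RALB_3 32.2% against 23.2%. These JQ1 libraries overlapped between the lines. RALB_2 had 60.5% and 74.6% in SU-DHL-5 against 65.3% and 46.7% in Toledo, and RALB_3 39.1% and 25.4% against 31.3% and 14.2%. RALB_1, which starts upstream of the others, was at 0 of 585 and 0 of 513 reads in SU-DHL-5, which allows at most 0.629% and 0.717%. In Toledo it had 9.13% of reads with DMSO and 20.3% with JQ1, but the libraries disagreed: 46 and 0 reads with DMSO and 9 and 94 reads with JQ1. No difference by line or treatment can be read from it.

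Genes with profiles most like a member were sought by Euclidean distance over the 4 sample means of log2(RPKM + 0.1), each centred on its own mean, among 10243 genes. Nearest to NRAS, the member with the lowest mean JQ1 ratio, were DPP9, PHF1 and DLAT, at distances of 0.0281, 0.0564 and 0.0613, where the median gene lay at 0.986. For RRAS, the member with the highest mean ratio, they were SLC48A1, MEIG1 and ARHGAP12, at 0.0812, 0.098 and 0.0995, against a median of 1.69. SLC48A1 for instance had means of 6.10 and 10.8 RPKM in SU-DHL-5 and 2.45 and 3.84 RPKM in Toledo, with DMSO and JQ1 in that order. MEIG1, with means of 0.896 and 1.69 RPKM in SU-DHL-5 and 0.295 and 0.544 RPKM in Toledo, reached 1 RPKM only in SU-DHL-5 with JQ1. Candidates needed that level in at least 1 sample, so MEIG1 entered only through the sample where RRAS was highest too. Its match rests on low values.

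Other genes of the pathway were taken from lists and counted by the same limits. The lists were written with earlier results of these data known. Their counts and the shares of all genes beside them are therefore a description only. Of 11 further RAS-family genes, 6 had at least 1 RPKM in the SU-DHL-5 samples and 7 in those of Toledo. In each line 1 rose and 1 fell, where 9.01% and 12.9% (SU-DHL-5) or 6.98% and 17.2% (Toledo) of all genes did so. None moved past 1.5-fold in both. The genes, named after their values were seen, were RAP2A (log2 ratio 0.62) and RHEBL1 (-0.59) in SU-DHL-5 and RAP2B (0.63) and DIRAS1 (-1.27) in Toledo. In the other line RAP2A (0.35), RHEBL1 (-0.34) and RAP2B (0.57) moved the same way by less than 1.5-fold, with libraries that did not overlap. DIRAS1 was at 0 in both DMSO libraries of SU-DHL-5 and was not compared there. The measured relatives had median log2 ratios of -0.00820 for SU-DHL-5 and -0.06 for Toledo.

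Of 9 genes of the RAF-MEK-ERK cascade, 7 were measured in each line, and MAPK3, which encodes the kinase ERK1, fell in both. It was at 21.6 and 24.1 RPKM with DMSO and 7.09 and 6.33 RPKM with JQ1 in SU-DHL-5 (log2 ratio -1.75), and at 23.2 and 21.8 against 4.39 and 5.0 RPKM in Toledo (-2.24). No other measured gene of the list passed 1.5-fold in either direction, and the medians were 0.30 and 0.21. The count was 1 of 7 downward and 0 of 7 upward in each line. Of all genes, 12.9% and 9.01% (SU-DHL-5) or 17.2% and 6.98% (Toledo) were past these limits. MAPK3 was thus below the cutoff ratio of 0.5 in both lines, which no RAS, RAP or RAL gene was.

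The list of RAL and RAP effectors as used held 11 names, of which 10 were in the table and 9 were measured. RGL2, an exchange factor for RAL that binds RAS, fell in both lines (log2 ratio -1.21 for SU-DHL-5 and -1.13 for Toledo). RASSF5, which binds RAP1 in the control of lymphocyte adhesion, fell likewise (-1.41 and -1.26). It had 7.04 and 6.61 RPKM with DMSO in SU-DHL-5, against 2.56 and 2.47 RPKM with JQ1. APBB1IP, which links RAP1 to talin and integrins, fell as well (-1.39 and -0.98). Its SU-DHL-5 libraries had 25.7 and 24.9 RPKM with DMSO, against 9.38 and 9.82 RPKM with JQ1. Thus 3 of 9 measured effectors fell in each line, the same genes in both, where 12.9% (SU-DHL-5) and 17.2% (Toledo) of all genes were past this limit downward, while MLLT4 rose in Toledo (0.67) and was higher by less in SU-DHL-5 (0.43). RAP1A and RAP1B themselves were higher with JQ1 in both lines. The medians were -0.25 and -0.30.

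Of the 9 genes of RAS prenylation and membrane targeting, all had at least 1 RPKM in SU-DHL-5 while 8 did in Toledo, and none of those passed 1.5-fold. Their medians were -0.10 and -0.01. FNTB, a subunit of farnesyltransferase, had means under 1 RPKM in the Toledo samples, where its log2 ratio was -0.60. Its values there were 0.883 and 1.11 RPKM with DMSO and 0.371 and 0.879 RPKM with JQ1. The libraries did not overlap, but the closest were nearly equal. Between the untreated lines, the same limits were passed upward by 3, 2, 4 and 1 and downward by 1, 2, 1 and 0 genes of the RAS-family, RAF-MEK-ERK, effector and prenylation lists, of which 7, 7, 9 and 9 were measured. Of all genes, 27.1% passed upward and 24.0% downward. Their median log2 ratios there were 0.23, -0.02, 0.40 and -0.03.

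RAP1A and RAP1B have similar coding sequences and pseudogenes, of which RAP1AP and RAP1BL were listed at 0 in every library, and how shared reads were assigned is not given in the sources used here. In GENCODE v29 on GRCh38, RAP1A (chr1:111619783-111713479, plus strand) and RAP1B (chr12:68610839-68660605, plus strand) overlap small genes or pseudogenes on the opposite strand, and those in the table were listed at 0. RAP1A overlaps the annotated INKA2 gene, and RALA (chr7:39623553-39708124) an antisense gene, for which no values were used here. The libraries were made with a stranded kit, but whether the counting used strand is not given in the sources used here.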

How the data were processed

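The authors sequenced stranded mRNA libraries of SU-DHL-5 and Toledo in paired reads. They deposited RPKM values of genes and of transcripts, normalised for feature length and mapped reads, for 8 libraries, 2 from each of 4 samples. The submitters' processing notes name GRCh38 and CASAVA 2.0; aligner, counting and annotation are not given in the sources used here. Library pairs were averaged and counted as 1 sample. Mapped reads and feature lengths (100 to 40000 bases) were recovered as the numbers that made RPKM values whole reads within 0.02, for 98.8% of genes with a value. Recovered reads served for exact binomial intervals, read counts and read shares of transcripts. Recovered lengths served for the comparisons with gene length. A count test was not used: with 1 sample per condition it would compare libraries.

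Ratios were log2((A + 0.1)/(B + 0.1)) of mean RPKM, among genes of at least 1 RPKM in either sample. A gene was said to rise or fall past 1.5-fold when no library of one sample reached those of the other. Members and lists were chosen with earlier results of these data known. 1 gene of the effector list is not reported here and was left out of its counts. From the lists, genes past 1.5-fold in the same direction in both lines were named, and isoforms of at least 10% of their gene in a sample; list genes past it in 1 line only were named after their values were seen. In single-library alternatives the libraries of 1 number were compared. Alternatives varied the pseudocount, filter, scaling, library, table and length centring. Python 3.11.15, pandas 2.3.3 and scipy 1.17.1 were used.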

Additional observations from a re-analysis of the deposited data

Results flagged for a closer look

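The JQ1 log2 ratios of 2 members had opposite signs in the 2 lines. The ratio of HRAS, 0.02 in SU-DHL-5, was -0.70 in Toledo, a difference of -0.72, with libraries that overlapped in SU-DHL-5 and did not in Toledo. For RALB it was -0.09 and 0.07, a difference of 0.17, with libraries that overlapped in both lines. Neither difference was tested, since each line had 1 sample per treatment.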

How the results depend on the processing

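The median log2 ratio of the members kept its sign in all 24 alternatives. With JQ1 in Toledo it went from 0.20 to 0.32 in library 1 alone, 0.07 in library 2 alone and 0.30 after centring on length. The median of all genes there moved too, from -0.07 to -0.00136 in library 1 alone and -0.15 in library 2 alone. Of the 24 alternative counts of members past 1.5-fold, 21 were within 1.5 times the reported count. The other 3 were in SU-DHL-5, where the count of 2 became 1 with a pseudocount of 1, after scaling by the median ratio of all genes, and in library 2 alone, each time by the loss of RAP1A, whose reported ratio was at the limit. In Toledo the count of 3 was 2 with a pseudocount of 1 (without RRAS), 2 after centring on length (without HRAS), 4 in library 1 alone (with RAP1A) and 3 in library 2 alone (without HRAS and with NRAS). No called member changed direction. Of the 192 alternative ratios of single members, 168 stayed within the counting interval of the reported value. The 24 that did not were of HRAS, NRAS, RAP1A and RAP1B, mostly in single libraries or after centring on length; the cause was not tested. Transcript shares were less stable. Of 90 alternative values, 51 lay within counting error of the share of summed transcript RPKM. The other 39 did not, mostly in single libraries. No paired analysis was possible because no condition had more than 1 sample. Depth limited RRAS in Toledo most, with 92 reads in the DMSO sample.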
